A study of Homo sapiens with 6 samples.

Results

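The mitochondrial chromosome encodes 37 of the 60612 genes listed for each library made from HCT116, a line established from a human colorectal carcinoma. These 37 were taken as the genes whose GENCODE symbol begins with MT- and that lie on the mitochondrial chromosome, which gave 13 mRNAs, 2 rRNAs and 22 tRNAs. This rule used no measured value, though earlier results of these data were known when the genes were chosen. RNA sequencing compared 3 libraries of cells infected with the negative control lentivirus LV-NC with 3 libraries of cells infected with LV-SNORA28, a lentivirus that overexpresses the small nucleolar RNA SNORA28. Cells of both groups were collected 72 h after infection, per the methods of the study, which name the GV235 vector and puromycin selection of the stable lines but not the promoter. Total RNA was selected for poly(A) tails before sequencing as paired reads of 150 bases. The labels do not say whether the 3 libraries of a group came from separate cultures, so p-values measure the spread between these libraries, which may be technical.

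Both strands of the human mitochondrial genome are transcribed into long precursors that cover many genes. The precursors are cut mostly at the tRNAs that separate the mRNAs and rRNAs, and most of the mRNAs then receive a short poly(A) tail. The mRNAs encode core subunits of respiratory complexes I, III and IV and of the ATP synthase, while the rRNAs and tRNAs serve the mitochondrial ribosome that translates them. Every other protein needed for these steps comes from the nucleus. Of the 37 genes, 12 mRNAs, both rRNAs and 14 tRNAs belong to the heavy-strand transcript, named after the template strand. MT-ND6 and 8 tRNAs belong to the light-strand transcript.

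Levels are given in FPKM, which scales fragments by gene length and by the mapped total. Genes read from 1 message can still differ in FPKM, as MT-ATP8 and MT-ATP6 do below. The sum of all FPKM was 306048 to 339342 in 5 libraries and 374676 in LV-NC replicate 2, which stands apart. That library had the highest value of all 6 for 11 of the 13 mitochondrial mRNAs and for both rRNAs. SNORA28 itself, the overexpressed RNA, had 0.92, 0 and 0.64 FPKM in the control libraries, against 15.01, 13.66 and 15.2 FPKM with LV-SNORA28, the order that the labels give. The libraries were selected for poly(A), so these values need not be the level of the mature small nucleolar RNA. Of 8 markers of colon epithelium, 6 had a mean of at least 1 FPKM, and VIL1 and LGALS4 were at 0.1 FPKM or below in every library. Of 8 markers of other cell types, COL1A1 alone reached that mean (3.16 to 4.46 FPKM).

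The mitochondrial genes took a smaller part of the transcriptome in LV-SNORA28 than in LV-NC. Their share of the FPKM sum was 42.9%, 47.7% and 42.7% in the LV-NC libraries and 38.3%, 37.8% and 35.9% in the LV-SNORA28 libraries. The groups did not overlap, with means of 44.4% ± 2.83 and 37.3% ± 1.25 (SD, n = 3 each). The exact two-sided permutation test gave p = 0.1, the smallest that 3 against 3 libraries allow, so no such test here can pass 0.05. Without LV-NC replicate 2 the difference was -5.51 percentage points, against -7.14 with all libraries. The FPKM of the 60575 other genes summed to 191035, 195885 and 194430 in LV-NC and to 196771, 199376 and 196223 in LV-SNORA28. The mitochondrial sum itself changed by -24.5% on average and the sum of the other genes by 1.90%. In bulk RNA, fewer cells expressing these genes and less RNA per cell cannot be told apart, nor can the number of mitochondrial genomes per cell be read from these values.

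The 3 classes of RNA were then taken one by one, with no test of the difference between classes. The mRNAs took 38.0%, 43.1% and 38.1% of the sum in the control libraries, against 34.1%, 32.9% and 31.0% with LV-SNORA28. The rRNAs took 2.10%, 2.15% and 1.97% against 1.69%, 1.65% and 1.67%. For both classes every LV-SNORA28 library lay below every LV-NC library (exact permutation p = 0.1 each, 0.15 after Benjamini-Hochberg adjustment over the 3 classes). The tRNA genes took 2.81%, 2.44% and 2.64% against 2.43%, 3.19% and 3.22%, and here the groups overlapped (exact permutation p = 0.4). When each FPKM was multiplied by exon length, which approximates a share of fragments, the mitochondrial share was 13.9% ± 1.58 in LV-NC and 10.2% ± 0.589 in LV-SNORA28 (SD, n = 3 each).

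**Figure D1:**
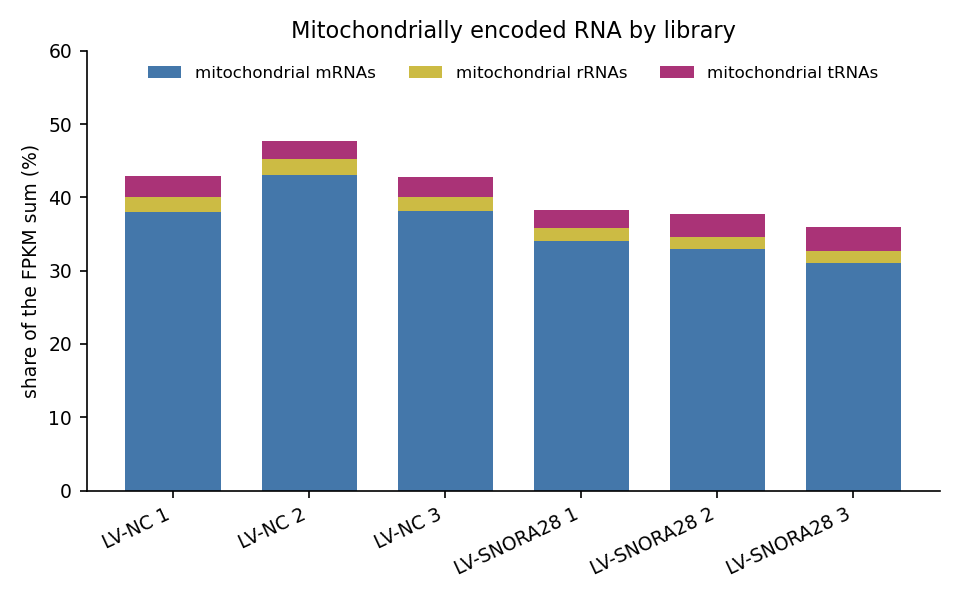
Share of the FPKM sum (y axis, percent) taken by mitochondrial mRNAs, rRNAs and tRNAs, stacked, in each of the 6 libraries (x axis). The stacks reach 42.7% to 47.7% in LV-NC and 35.9% to 38.3% in LV-SNORA28, and nearly all of the difference lies in the mRNAs.

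Each gene was then tested in a limma model fitted over 12076 genes whose mean over the libraries reached 1 FPKM, which all 37 mitochondrial genes did. Fold changes are LV-SNORA28 over LV-NC on the log2(FPKM + 1) scale, and adjusted p-values are those of Benjamini and Hochberg over all 12076 genes. With an adjusted p below 0.05, 7 mitochondrial genes fell and 2 rose. Among all genes tested, 2.10% were called lower and 6.81% higher. The genes that fell were the mRNAs MT-CO1, MT-ATP6, MT-ND5 and MT-ND6, the large-subunit rRNA MT-RNR2 and the tRNAs MT-TE and MT-TP, while the tRNAs MT-TQ and MT-TM rose. The groups did not overlap in 14 of the 37 genes with lower values in LV-SNORA28 and in 2 with higher values, where 8.16% and 27.0% of all genes tested had such groups. The median log2 fold change was -0.22 over the 37 genes, against 0.09 over all genes tested. Scaling each library to the FPKM sum of its nuclear genes called the same number, 7 lower and 2 higher, against 2.19% and 5.09% of all genes. Scaling to the median ratio of the nuclear genes gave 7 lower and 0 higher, against 3.00% and 3.15% of all genes, so the surplus of higher calls among all genes depended on the scaling. Quantile normalization gave 3 lower (MT-ND6, MT-TE and MT-TP) and 2 higher (3.11% and 3.73% of all genes). There MT-TM remained higher, MT-TQ lost its call (limma adjusted p 0.0593) and MT-TL1 gained one (0.0363). Without the filter on low values none of the 37 was called in either direction (0.278% and 0.934% of all genes), while 7 were lower and 2 higher at an unadjusted p below 0.05 in that limma fit (3.48% and 11.0% of all genes). At an unadjusted p below 0.05 with a change of more than 1.5-fold, 4 were lower and 0 higher (1.22% and 2.58% of all genes).

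**Figure D2:**
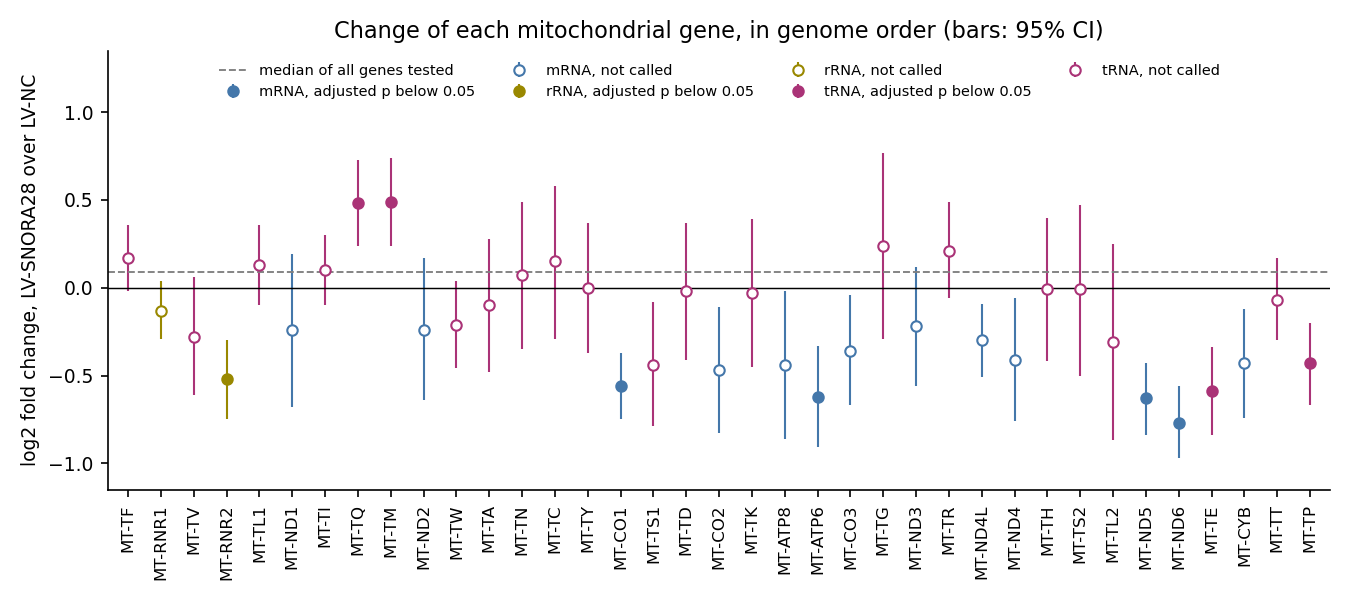
Log2 fold change of LV-SNORA28 over LV-NC (y axis) for the 37 mitochondrial genes in genome order (x axis), with 95% confidence intervals from limma, filled points for an adjusted p below 0.05 and a dashed line at the median of all genes tested, 0.09. All 13 mRNAs lie below 0, from -0.77 for MT-ND6 to -0.22 for MT-ND3, and the tRNAs spread from -0.59 to 0.49.

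Complex I, the NADH dehydrogenase that feeds electrons into the respiratory chain, has 7 mitochondrial subunits, of which 2 fell. MT-ND6 (ENSG00000198695; hg38 chromosome M, 14149 to 14673) is the light-strand mRNA, and as background its message is known to carry little or no poly(A). It stood at 3840.54, 4399.67 and 3883.23 FPKM in the control libraries, against 2542.52, 2285.03 and 2287.7 FPKM with LV-SNORA28. The highest LV-SNORA28 value lay well below the lowest LV-NC value, a mean change of -41.3%. The log2 fold change was -0.77 (SE 0.09) with a limma adjusted p of 0.00696. It was the one mitochondrial gene whose call held in each of the 6 fits that left out 1 library, with adjusted p-values of 0.0206 to 0.039. If strand was not used in counting, fragments counted for MT-ND6 may come from the opposite strand, which was not tested.

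MT-ND5 (ENSG00000198786; chromosome M, 12337 to 14148) ends at the base beside the end of MT-ND6 and is read from the other strand, so the 2 genes face each other end to end. Its values were 4756.05, 4210.75 and 4677.16 FPKM in LV-NC and 3084.21, 2722.22 and 2987.22 FPKM in LV-SNORA28. The groups lay far apart, and LV-NC replicate 2 was here the lowest of its group. MT-ND6 stood at 0.808, 1.04 and 0.83 times MT-ND5 in LV-NC and at 0.824, 0.839 and 0.766 times in LV-SNORA28, with overlap. The log2 fold change of MT-ND5 was -0.63 (SE 0.08; limma adjusted p 0.0106), and of the 6 fits that left out 1 library the one without LV-SNORA28 replicate 2 lost the call, at an adjusted p of 0.0517. The call was also lost without the filter on low values (0.127) and under quantile normalization (log2 fold change -0.09, limma adjusted p 0.67). The last 24 bases of both genes, each in the sense of its own mRNA with the stop codon in capitals, show the facing ends, MT-ND5 at chrM:14125-14148 and MT-ND6 at chrM:14149-14172.
MT-ND5: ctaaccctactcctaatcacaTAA
MT-ND6: attgagattgctcgggggaatAGG

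The other complex I mRNAs did not pass the test. MT-ND1 and MT-ND2, neighbours near the start of the heavy-strand mRNAs, had groups that overlapped, with log2 fold changes of -0.24 each (limma adjusted p 0.429 and 0.416). MT-ND1 stood at 5088.68, 8245.8 and 5828.16 FPKM in the control libraries, against 5362.39, 5685.65 and 4819.08 FPKM with LV-SNORA28, so the higher LV-NC mean rested on replicate 2. Without that library its log2 fold change was -0.05. The values of MT-ND2 ran beside those of MT-ND1 in all 6 libraries, at 0.98 to 1.04 times their level. MT-ND3 was -0.22 (limma adjusted p 0.369) and its groups overlapped too.

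MT-ND4L (ENSG00000212907; chromosome M, 10470 to 10766) and MT-ND4 (ENSG00000198886; chromosome M, 10760 to 12137) share 1 message and overlap by 7 bases, shown in capitals with 12 bases on each side (chrM:10748-10778).
MT-ND4L and MT-ND4: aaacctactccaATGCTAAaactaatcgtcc
MT-ND4L stood at 12463.94, 12758.88 and 12443.93 FPKM in the control libraries, against 11066.92, 10294.34 and 9315.06 FPKM with LV-SNORA28. MT-ND4 had 12695.45, 17146.99 and 13015.58 FPKM against 11590.96, 11137.44 and 9423.97 FPKM. In both genes every LV-SNORA28 library was below every LV-NC library, but the limma adjusted p-values were 0.0845 (log2 fold change -0.30) and 0.131 (-0.41). In LV-NC replicate 2 the 2 genes parted, at 0.744 times for MT-ND4L over MT-ND4, against 0.924 to 0.988 in the 5 other libraries.

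MT-CYB (ENSG00000198727; chromosome M, 14747 to 15887) encodes cytochrome b, the mitochondrial subunit of complex III, which passes electrons from ubiquinol to cytochrome c. Its values were 6143.42, 7786.83 and 6051.18 FPKM in LV-NC and 5303.21, 5072.74 and 4361.87 FPKM in LV-SNORA28. The control libraries were all higher, and the log2 fold change of -0.43 had a limma adjusted p of 0.087.

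Complex IV, cytochrome c oxidase, passes the electrons to oxygen and has 3 mitochondrial subunits, of which MT-CO1 fell. MT-CO1 (ENSG00000198804; chromosome M, 5904 to 7445), its catalytic subunit, stood at 16520.56, 15809.56 and 15238.42 FPKM in the control libraries, against 10727.13, 10288.46 and 11265.65 FPKM with LV-SNORA28. Both groups were tight and far apart, a mean change of -32.1%. The log2 fold change was -0.56 (SE 0.08; limma adjusted p 0.0127), and without LV-SNORA28 replicate 2 the adjusted p was 0.0722. The call was also lost without the filter on low values (limma adjusted p 0.41) and under quantile normalization (log2 fold change -0.13, limma adjusted p 0.505). A limma fit with the replicate number as a block lost it too (adjusted p 0.0533). MT-CO2, the highest of all 37 genes, had 20744.38, 28975 and 22272.81 FPKM against 18302.63, 18120.15 and 15224.8 FPKM. MT-CO3 had 16860.64, 22273.61 and 17336.38 FPKM against 15231.31, 15160.04 and 13395.23 FPKM. For MT-CO2 and MT-CO3 the groups did not overlap either, yet the spread within LV-NC was wide and the limma adjusted p-values were 0.104 (log2 fold change -0.47) and 0.134 (-0.36).

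The ATP synthase makes ATP from the proton gradient, and its mitochondrial subunits MT-ATP8 and MT-ATP6 are read from 1 message in which the genes overlap by 46 bases. The overlap is shown in capitals, because fragments over these bases could be counted for either gene (chrM:8515-8584).
MT-ATP8 and MT-ATP6: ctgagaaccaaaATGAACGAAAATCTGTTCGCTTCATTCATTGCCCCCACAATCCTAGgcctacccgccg
MT-ATP6 (ENSG00000198899; chromosome M, 8527 to 9207) stood at 6076.65, 7575.14 and 6113.05 FPKM in the control libraries, against 4687.29, 4274.19 and 3850.06 FPKM with LV-SNORA28. It fell, with groups clear of each other and a log2 fold change of -0.62 (SE 0.12; limma adjusted p 0.0300). The call did not hold in any fit that left out 1 library, where adjusted p-values ran from 0.0524 to 0.103. MT-ATP8 (ENSG00000228253; chromosome M, 8366 to 8572), the shortest mRNA with 207 bases, had 13334.9, 19659.1 and 13291.33 FPKM against 12205.91, 11449.61 and 9918.33 FPKM. Its groups were apart by less, and its log2 fold change of -0.44 had a limma adjusted p of 0.16. MT-ATP8 stood at 2.17 to 2.6 times MT-ATP6 in LV-NC and at 2.58 to 2.68 times in LV-SNORA28, with overlap. The genes share 1 message, so FPKM does not compare their amounts.

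**Figure D3:**
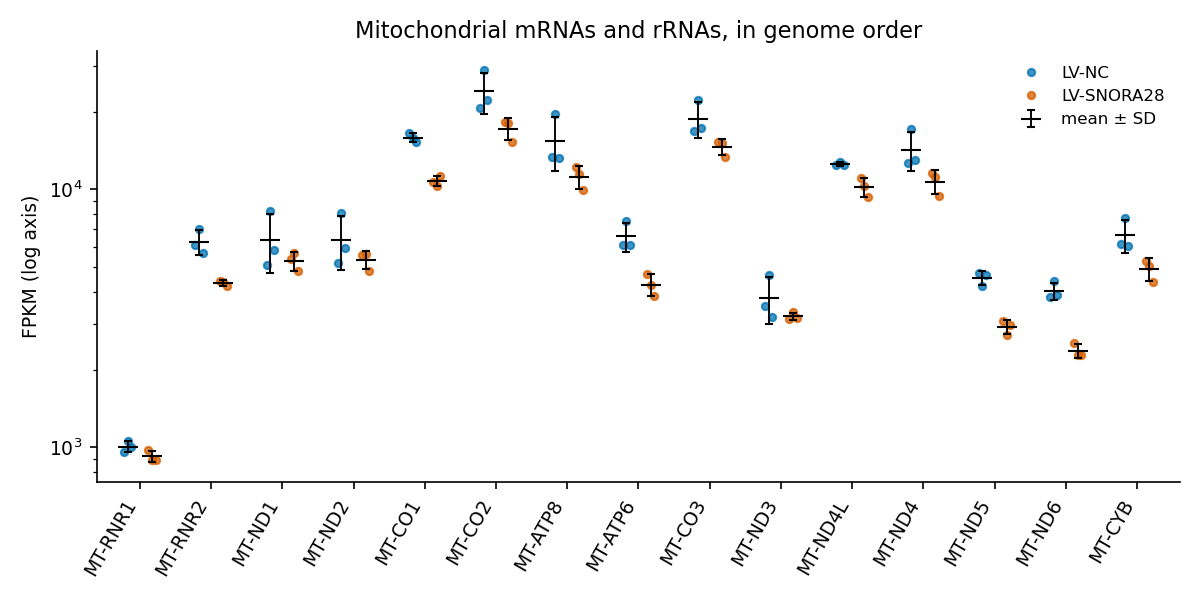
FPKM on a log axis (y axis) of the 13 mitochondrial mRNAs and 2 rRNAs in genome order (x axis), 1 point per library, with mean ± SD of each group of 3. The groups are clear of each other for 10 mRNAs and MT-RNR2, and overlap for MT-ND1, MT-ND2, MT-ND3 and MT-RNR1.

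The mRNAs also differ in how they end. In 7 of the 13 the annotated gene holds a complete stop codon, while in 6 it ends after the first T or TA of a stop codon that the poly(A) tail completes, namely MT-ND1, MT-ND2, MT-CO3, MT-ND3, MT-ND4 and MT-CYB. All 4 mRNAs that fell were among the 7, with stop codons AGA in MT-CO1, TAA in MT-ATP6 and MT-ND5 and AGG in MT-ND6. The median log2 fold change was -0.56 over the 7 genes and -0.30 over the 6. This split was made after the values were seen and was not tested. The ends of the other pair that fell are shown with the stop codon in capitals, MT-CO1 at chrM:7422-7445 and MT-ATP6 at chrM:9184-9207.
MT-CO1: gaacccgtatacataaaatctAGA
MT-ATP6: ctctacctgcacgacaacacaTAA

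The make-up of the mRNA pool itself was compared by giving each mRNA as a share of the summed FPKM of all 13, which is free of the overall level. MT-ND6 made up 3.02%, 2.72% and 3.00% of the pool in LV-NC and 2.34%, 2.17% and 2.41% in LV-SNORA28. MT-ATP6 made up 4.78%, 4.69% and 4.73% against 4.31%, 4.05% and 4.06%. These 2 were the mRNAs whose share was lower in every LV-SNORA28 library than in every LV-NC library. The shares of MT-ND2, MT-CO3 and MT-ND3 were higher without overlap, for instance 13.3%, 13.8% and 13.4% against 14.0%, 14.4% and 14.1% for MT-CO3. The shares of the 8 other mRNAs overlapped, and MT-CYB stayed between 4.60% and 4.87% in all libraries. MT-CO1, which fell in FPKM, had overlapping shares, with 9.78% in LV-NC replicate 2 and 11.9% in LV-SNORA28 replicate 3. The exact permutation p was 0.1 for each of the 5 mRNAs with groups apart and 0.26 after adjustment over 13, so none passed.

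**Figure D4:**
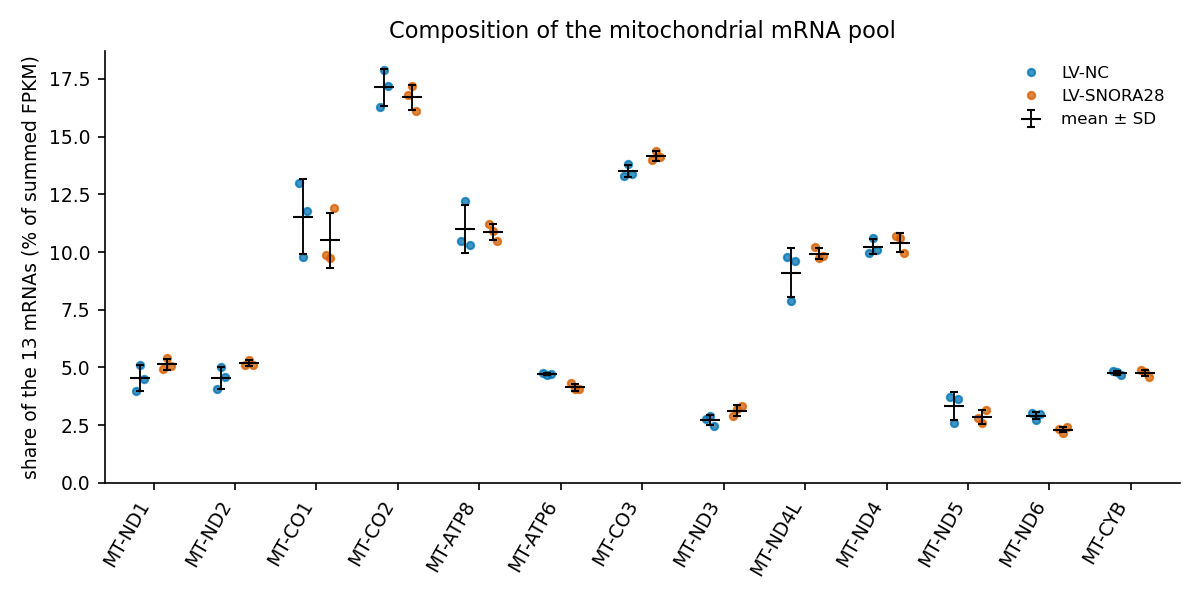
Share of each mRNA in the summed FPKM of the 13 mitochondrial mRNAs (y axis, percent), 1 point per library, with mean ± SD of each group of 3. MT-ND6 and MT-ATP6 sit lower in LV-SNORA28, MT-ND2, MT-CO3 and MT-ND3 sit higher, and the other 8 overlap.

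Of the 2 rRNAs, MT-RNR2 passed the test. MT-RNR2 (ENSG00000210082; chromosome M, 1671 to 3229), the rRNA of the large ribosomal subunit, stood at 6069.64, 7010.57 and 5695.22 FPKM in the control libraries, against 4400.58, 4390.27 and 4217.37 FPKM with LV-SNORA28. It fell, with a log2 fold change of -0.52 (SE 0.09; limma adjusted p 0.0246). The call held without LV-NC replicate 2 (adjusted p 0.0382) and without LV-NC replicate 3 (0.046) and was lost without any of the 4 other libraries, at 0.095 at most. MT-RNR1 (ENSG00000211459; chromosome M, 648 to 1601), the rRNA of the small subunit, had 960.93, 1058.26 and 1003.43 FPKM against 974, 894.7 and 897.18 FPKM. Its groups overlapped and the log2 fold change of -0.13 had a limma adjusted p of 0.279. The ratio of MT-RNR2 to MT-RNR1 was 6.32, 6.62 and 5.68 in LV-NC and 4.52, 4.91 and 4.70 in LV-SNORA28, with no overlap (exact permutation p = 0.1, and 0.24 adjusted over 12 ratios that were chosen after the values were seen). Selection for poly(A) recovers rRNA only in part, so these levels are not those in the cell.

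The tRNA genes are 59 to 75 bases long, and fragments assigned to them may come from longer precursors that cross them or, if strand was not used in counting, from the opposite strand. Their means over the 6 libraries ran from 11.7 FPKM for MT-TS1 to 2195 FPKM for MT-TC. MT-TA, MT-TN, MT-TC and MT-TY, a cluster of light-strand tRNAs between MT-ND2 and MT-CO1, took 62.1% to 73.9% of the FPKM of all 22 tRNA genes in each library. All 8 light-strand tRNAs together took 71.8% to 81.0%. Within the cluster LV-SNORA28 replicate 1 was the lowest of the 6 libraries for each gene, such as 1691.4 FPKM for MT-TC against 2799.13 and 2502.29 FPKM in the other LV-SNORA28 libraries. None of the 4 passed the test (log2 fold changes from -0.10 to 0.15).

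The tRNAs that fell were both of the light strand. MT-TE (ENSG00000210194; chromosome M, 14674 to 14742), the glutamate tRNA, lies directly upstream of MT-ND6 and stood at 635.44, 784.1 and 697.06 FPKM in the control libraries, against 518.87, 454.4 and 433.72 FPKM with LV-SNORA28. The groups were clear of each other (log2 fold change -0.59, SE 0.10, limma adjusted p 0.0239), and the call held without LV-NC replicate 1 (0.0351) and without LV-SNORA28 replicate 1 (0.0408) but not without any of the 4 other libraries (at most 0.0885). Over MT-ND6, MT-TE stood at 0.165, 0.178 and 0.18 in LV-NC and at 0.204, 0.199 and 0.19 in LV-SNORA28. MT-TP (ENSG00000210196; chromosome M, 15956 to 16023), the proline tRNA, had 272.11, 328.24 and 271.15 FPKM against 199.53, 232.21 and 211.33 FPKM. Its log2 fold change was -0.43 (SE 0.10; limma adjusted p 0.0459), and no fit that left out 1 library kept the call (0.0693 to 0.135).

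The tRNAs that rose stand side by side on opposite strands. MT-TQ (ENSG00000210107; chromosome M, 4329 to 4400), the glutamine tRNA of the light strand, stood at 21.2, 21.38 and 23.05 FPKM in the control libraries, against 26.95, 35.26 and 31.31 FPKM with LV-SNORA28. MT-TM (ENSG00000210112; chromosome M, 4402 to 4469), the methionine tRNA of the heavy strand, directly precedes MT-ND2 and had 42.58, 54.16 and 51.91 FPKM against 72.43, 72.99 and 64.04 FPKM. In both tRNAs every LV-SNORA28 library was above every LV-NC library. The log2 fold changes were 0.48 (SE 0.10; limma adjusted p 0.0373) and 0.49 (SE 0.11; limma adjusted p 0.0391). The call of MT-TQ held only without LV-SNORA28 replicate 1 (0.0349), with 0.119 at most otherwise, and that of MT-TM in none of the 6 fits (0.0561 to 0.124). Scaling to the median ratio of nuclear genes, which moves the median of all genes from 0.09 to 0, gave 0.38 and 0.39, with adjusted p-values of 0.0912 and 0.127.

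The 4 tRNA genes that were called are shown in the sense of the tRNA, because they are the shortest genes that changed. They are MT-TQ with the bases it shares with MT-TI, the isoleucine tRNA of the opposite strand, in capitals (chrM:4329-4400), MT-TM (chrM:4402-4469), MT-TE (chrM:14674-14742) and MT-TP (chrM:15956-16023).
MT-TQ: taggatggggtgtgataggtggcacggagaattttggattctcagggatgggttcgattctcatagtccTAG
MT-TM: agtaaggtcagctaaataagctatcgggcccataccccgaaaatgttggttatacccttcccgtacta
MT-TE: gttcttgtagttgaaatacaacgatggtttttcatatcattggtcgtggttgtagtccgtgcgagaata
MT-TP: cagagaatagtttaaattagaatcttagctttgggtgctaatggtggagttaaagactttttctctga

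The 18 other tRNA genes did not pass. MT-TS1, a serine tRNA of the light strand, was the one among them whose groups did not overlap, with 11.34, 13 and 16.69 FPKM in the control libraries against 8.93, 11.25 and 9.16 FPKM (log2 fold change -0.44, limma adjusted p 0.12). The remaining log2 fold changes lay between -0.31 for MT-TL2 and 0.24 for MT-TG. MT-TH, MT-TS2 and MT-TL2, which follow one another after MT-ND4, varied widely within LV-SNORA28, for instance at 175.97, 114.23 and 217.17 FPKM for MT-TL2. MT-TF, the first gene of the heavy-strand transcript, had 55.94, 60.15 and 66.09 FPKM in LV-NC and 71.76, 64.29 and 68.62 FPKM in LV-SNORA28 (log2 fold change 0.17, limma adjusted p 0.231). MT-TV, which lies between the rRNAs, had -0.28 (limma adjusted p 0.256). MT-TL1, the highest tRNA of the heavy strand, was listed at 585.11, 739.87 and 656.41 FPKM against 751.35, 721.05 and 685.49 FPKM, with overlap (0.13, limma adjusted p 0.435). MT-TI (0.10), MT-TW (-0.21), MT-TD (-0.02), MT-TK (-0.03), MT-TR (0.21) and MT-TT (-0.07), with their log2 fold changes in parentheses, also had groups that overlapped.

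**Figure D5:**
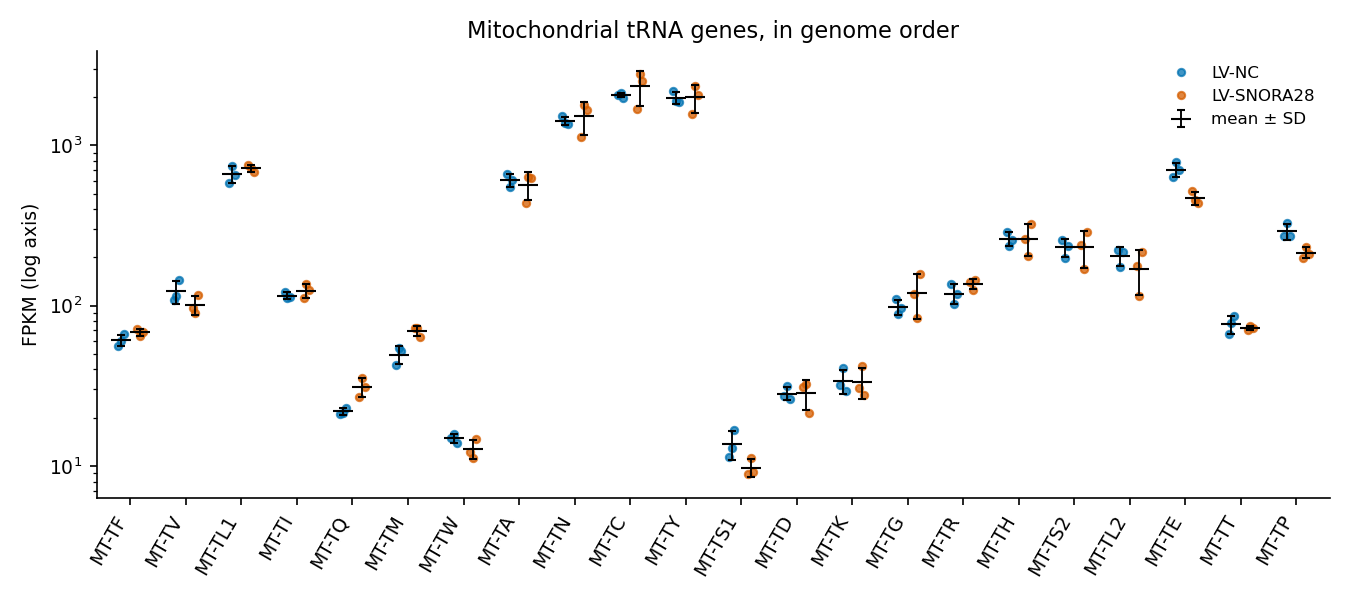
FPKM on a log axis (y axis) of the 22 mitochondrial tRNA genes in genome order (x axis), 1 point per library, with mean ± SD of each group of 3. MT-TC, MT-TY and MT-TN are highest, MT-TQ and MT-TM sit higher in LV-SNORA28, and MT-TE and MT-TP sit lower.

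Nuclear DNA holds copies of mitochondrial genes, and reads of a mitochondrial message may be assigned to them. Of 404 annotated pseudogene copies of the mRNAs and rRNAs, 9 reached a mean of 1 FPKM, and 6 of these lie in 1 block of chromosome 1 between 629062 and 634922. The copy of MT-ATP6 in that block, MTATP6P1 (ENSG00000248527; hg38 chromosome 1, 633696 to 634376), stood at 3226.19, 4336.42 and 3140.16 FPKM in the control libraries, against 3012.24, 2577.3 and 2386.85 FPKM with LV-SNORA28. It therefore stood at 51.4% to 57.2% of MT-ATP6 in LV-NC and at 60.3% to 64.3% in LV-SNORA28, without overlap. The reference sequences differ at 10 of 681 bases and are identical over up to 141 bases in a row. The first 60 bases of both (chrM:8527-8586 and chr1:633696-633755) show how alike they are, with the base that differs in capitals.
MT-ATP6: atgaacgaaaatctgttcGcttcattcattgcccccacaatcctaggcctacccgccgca
MTATP6P1: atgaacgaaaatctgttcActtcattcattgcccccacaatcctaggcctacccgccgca

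When each mitochondrial gene was summed with its copy in this block, an alternative added after the data were seen, the log2 fold change of MT-ATP6 was -0.55 with a limma adjusted p of 0.0535. Of the 8 other called genes only MT-CO1 has a copy in this block, and its call held (limma adjusted p 0.0127). The others had nothing added, so their unchanged calls say nothing about shared reads. MTND2P28 stood at 12.6% to 13.8% of MT-ND2 in LV-NC and at 15.0% to 16.3% in LV-SNORA28, and MTCO1P12 at 3.28% to 3.84% of MT-CO1 over all libraries. MTCO1P12 fell with a log2 fold change of -0.63 (limma adjusted p 0.00382), beside -0.56 for MT-CO1. Of the 9 copies, 4 fell and none rose, where 2.10% of all genes tested were called lower and 6.81% higher. At an unadjusted limma p below 0.05, 5 were lower and 0 higher, against 6.08% and 22% of all genes. The other 3 that fell were MTCO2P12 (-1.33, limma adjusted p 0.0269), MTCO3P12 (-1.13, 0.0345) and, on chromosome 5, MTND6P4 (-1.46, 0.00207). These 3 copies fell by more than their parent genes MT-CO2, MT-CO3 and MT-ND6, which had log2 fold changes of -0.47, -0.36 and -0.77. MTND6P4, 95.0% identical to MT-ND6, was listed at 4.56, 3.72 and 4.17 FPKM against 0.85, 0.97 and 0.77 FPKM. It thus reached the mean of 1 FPKM only through LV-NC, the group where it is high, so its place among the 4 partly follows from the filter. Without the filter on low values 2 of 62 copies were called lower and 0 higher, against 0.278% and 0.934% of all genes. How far reads shared with the mitochondrial genes set the values of the copies was not tested.

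The nuclear genes that serve mitochondrial RNA and DNA were then counted from a list of 38, all of which reached a mean of 1 FPKM. PTCD1, a mitochondrial protein that binds leucine tRNAs and their precursors, rose from 3.68, 3.54 and 3.59 FPKM in LV-NC to 5.70, 5.54 and 5.15 FPKM in LV-SNORA28 (log2 fold change 0.49, SE 0.07, limma adjusted p 0.0118). PTCD1 overlaps the annotated read-through gene ATP5MF-PTCD1 on the same strand, so reads of the 2 could be split in counting. The call of PTCD1 was the 1 among the 38, where 6.81% of all genes tested were called higher. At an unadjusted p below 0.05 limma gave 12 higher and 1 lower of the 38, against 22% and 6.08% of all genes. The list had no call without LV-SNORA28 replicate 2, a fit for which the share of all genes called is not given. The median log2 fold change of the list was 0.15, against 0.09 over all genes tested. By role, the 9 transcription genes had a median of 0.15, the 8 genes of transcript processing 0.11, the 11 genes of RNA stability and decay 0.15 and the 10 genes that copy and package the genome 0.22. POLRMT, the mitochondrial RNA polymerase, had 19.5 ± 0.779 FPKM in LV-NC and 16.7 ± 1.30 FPKM in LV-SNORA28 (SD, n = 3 each; limma adjusted p 0.114). TFAM, which packages the genome and starts its transcription, had 8.49 ± 0.467 against 9.57 ± 0.947 FPKM (limma adjusted p 0.303). LRPPRC, which stabilizes mitochondrial mRNAs, had 28.9 ± 2.27 against 33.2 ± 1.78 FPKM (limma adjusted p 0.168), and MTPAP, the mitochondrial poly(A) polymerase, 3.61 ± 0.274 against 4.40 ± 0.0839 FPKM (limma adjusted p 0.101).

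The nuclear-encoded subunits of the respiratory complexes and the ATP synthase were counted from a list of 79 genes, all of which reached a mean of 1 FPKM. The list also holds ATP5IF1, an inhibitor of the ATP synthase, counted here with its subunits and among the genes that rose. Of the 79 genes 9 rose and none fell, where 6.81% of all genes tested were called higher and 2.10% lower, and 42 had groups that did not overlap with higher values, where 27.0% of all genes did. Their median log2 fold change was 0.19, against -0.43 for the 13 mitochondrial mRNAs and 0.09 for all genes tested. Among the 9 that rose, the largest fold changes were those of ATP5MK of the ATP synthase (66.1 ± 7.07 FPKM in LV-NC and 95.6 ± 3.40 FPKM in LV-SNORA28, SD, n = 3 each) and UQCRQ and UQCRC2 of complex III. Their log2 fold changes were 0.53, 0.43 and 0.37 (limma adjusted p 0.0196, 0.0373 and 0.0179). At an unadjusted limma p below 0.05, 40 were higher and 0 lower, against 22% and 6.08% of all genes. Scaling each library to the FPKM sum of its nuclear genes left 6 of the 79 called higher and 0 lower, against 5.09% and 2.19% of all genes. Their median log2 fold change was then 0.16, against 0.06 over all genes tested. Without the filter on low values 1 of the 79 was called higher, against 0.934% of all genes. The count ranged from 0 to 4 in the fits that left out 1 library, and none was left without LV-SNORA28 replicate 2 or 3. The share of all genes called in those fits is not given, so a general loss of calls cannot be set beside this range. The median was 0.20 over 37 subunits of complex I, 0.10 over 9 of complex III, 0.18 over 11 of complex IV and 0.21 over 18 of the ATP synthase, the complexes whose mitochondrial mRNAs had medians of -0.30, -0.43, -0.47 and -0.53.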

How the data were processed

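Poly(A) RNA of 6 HCT116 libraries was measured, and the titles of the samples gave the groups. Per library, the authors deposited Ensembl identifiers with FPKM. The submitters' notes name hg38, cutadapt 1.9, HISAT2 2.2.1 and StringTie 2.1.6. The annotation release, the use of strand in counting and mapped totals are not given in the sources used here. Depth could not be recovered: the best step size put 31.7% to 36.7% of a library's low values within 0.1 of whole reads, against 20% by chance, so no counting interval is given. No 2 libraries were copies, as every pair differed in 26342 genes or more. GENCODE 44 gave symbols for 60401 identifiers (211 had none), and sequences came from hg38.

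Genes averaging 1 FPKM or more were fitted as log2(FPKM + 1) in limma 3.58.1 (R 4.3.3) with a mean-variance trend. Tests were two-sided and adjusted by Benjamini-Hochberg at 0.05. The fit was checked on simulated data. Shares and ratios were tested with exact permutation tests in scipy 1.17.1. The genes, lists and tests were chosen with earlier results of these data known. All 37 mitochondrial genes are accounted for, and of each other list up to 3 called genes in each direction with the largest fold change are named, with 4 further machinery genes (POLRMT, TFAM, LRPPRC and MTPAP) and the copies chosen after values were seen. Alternatives were other pseudocounts, filters, scalings, a replicate block and each library left out, and, added after the data were seen, the sum with nuclear copies and library omission under nuclear scaling.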

Additional observations from a re-analysis of the deposited data

How the results depend on the processing

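Depth is unknown, so the precision of low values rests on the spread between libraries. The 7 lower and 2 higher mitochondrial genes became 0 and 0 with no filter on low values and 4 and 0 at a raw p below 0.05 and a fold change above 1.5. Quantile normalization gave 3 lower genes. It gives each rank the same value in every library by construction, and mitochondrial genes, MT-RNR2 among them, held the 13 highest ranks in each. It turned the log2 fold changes of MT-RNR1 (0.0698), MT-ND1 (0.15), MT-ND2 (0.0992), MT-ATP8 (0.0556), MT-ND3 (0.22), MT-ND4L (0.0515) and MT-ND4 (0.0262) above 0, none of them called. Median ratio scaling left no higher gene (0) and gave -0.00865 for MT-TI and -0.0384 for MT-TN. The labels' replicate numbers paired no libraries (deviations correlated at -0.0441, 0.0914 and 0.00983), and a fit with a replicate block gave 3 lower and 0 higher genes. With 1 library left out, 1 to 4 were lower and 0 to 1 higher, and with nuclear scaling 1 to 6 and 0 to 1. The machinery list then had 0 to 2 higher calls, the nuclear-encoded subunits 0 to 4, and the nuclear copies 2 to 3 lower calls, with 2 where no filter was used. The share of all genes called is not given for the replicate block or the fits without 1 library. A general loss of calls in those fits therefore cannot be set beside these counts. In the fits that left out 1 library MT-TA ranged from -0.20 to 0.0721, MT-TN from -0.0596 to 0.27, MT-TC from -0.0013 to 0.36, MT-TY from -0.13 to 0.16, MT-TD from -0.12 to 0.17, MT-TK from -0.20 to 0.10, MT-TH from -0.17 to 0.16, MT-TS2 from -0.19 to 0.20 and MT-TT from -0.17 to 0.0183. Of 555 values of single genes under 15 alternatives, 471 kept their direction and side of the threshold, 57 lost the call, 1 gained it and 26 changed direction, none of these (0) a called gene. Only called genes could lose a call, so all 57 losses are theirs. Values of genes that stayed not called count as kept, so the 471 do not measure how firm the calls are. The shares of the FPKM sum kept their direction under every alternative run. Other causes were not tested.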
